A study of Mus musculus with 47 samples.

Results

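Mt1, Mt2, Mt3, Fth1, Ftl1, Hmox1, Nqo1, Gpx4, Sod1 and Sod2 were read from the hippocampal count table as a fixed set of 10 named genes, out of 35486 genes in the table. All 10 were among the 17778 genes that passed the count filter, so none of them was lost to low counts. RNA of the whole hippocampus was sequenced from male C57BL/6J mice after peripheral injections of either vehicle (Veh) or mouse platelet factor 4 (PF4, a chemokine released by platelets). The groups were Young Veh (13 mice, 3.75 to 5.26 months of age), Young PF4 (12 mice, 4.08 to 5.03 months), Old Veh (12 mice, 17.47 to 19.97 months) and Old PF4 (10 mice, 17.4 to 20.23 months). Neither the labels nor the methods name an engineered allele in these mice. The design asks what age changes, and what PF4 changes at each age.

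Metallothioneins are small cysteine-rich proteins that bind zinc and copper. Mt1 and Mt2 are made in most tissues and are induced by metals, glucocorticoids and inflammation, whereas Mt3 is the form typical of brain. Ferritin is a hollow shell of heavy (Fth1) and light (Ftl1) chains that stores iron, and the heavy chain carries the ferroxidase activity. Hmox1 degrades heme and releases its iron, and Nqo1 reduces quinones. Both are textbook targets of the transcription factor Nrf2, which acts through antioxidant response elements. Gpx4 reduces lipid peroxides in membranes and thereby restrains ferroptosis, and Sod1 (cytosol) and Sod2 (mitochondria) remove superoxide.

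The metallothionein genes lie together on the plus strand of chromosome 8. In GRCm38 Mt3 spans 94152607 to 94154146, Mt2 spans 94172664 to 94173568 and Mt1 spans 94179082 to 94180327, a stretch of 27.7 kb in all. Their upstream sequences are shown because the 3 genes varied together between mice, as described below. Each is the 250 bases before the start of the RefSeq transcript in GRCm38.p6, with the cores of metal response elements in capitals. These cores are the sites bound by the metal-sensing factor Mtf1, searched as TGCACNC and TGCGCNC on both strands.
Mt1, chr8:94178839-94179088, plus strand: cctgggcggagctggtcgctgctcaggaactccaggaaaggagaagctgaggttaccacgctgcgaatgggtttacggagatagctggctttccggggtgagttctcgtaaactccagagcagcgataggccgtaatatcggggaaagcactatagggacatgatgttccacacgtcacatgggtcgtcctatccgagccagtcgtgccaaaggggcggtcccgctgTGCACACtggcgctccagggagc
Mt2, chr8:94172368-94172617, plus strand: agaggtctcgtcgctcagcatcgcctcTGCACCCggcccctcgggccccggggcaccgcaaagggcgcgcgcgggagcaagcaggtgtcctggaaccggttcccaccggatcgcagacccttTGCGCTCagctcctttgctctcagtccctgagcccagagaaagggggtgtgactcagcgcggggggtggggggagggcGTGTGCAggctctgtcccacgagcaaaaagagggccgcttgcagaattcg
Mt3, chr8:94152357-94152606, plus strand: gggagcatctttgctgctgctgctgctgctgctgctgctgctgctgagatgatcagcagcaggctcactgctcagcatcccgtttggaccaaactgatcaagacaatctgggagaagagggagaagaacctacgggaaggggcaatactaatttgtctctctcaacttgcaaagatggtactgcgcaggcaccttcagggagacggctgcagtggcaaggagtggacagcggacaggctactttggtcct
Mt2 held 3 such cores in this window, Mt1 held 1 and Mt3 held 0. These counts depend on where the annotated start lies: the 50 bases after it, not shown, held or completed 2 further cores at Mt1, 1 at Mt2 and 1 at Mt3. Of 32851 mouse promoter windows of the same length, 21.4% held at least 1 core and 1.26% held at least 3. The cores in these windows are matches of letters, not measured sites. Where transcription starts in hippocampus was not measured, so the counts do not rank these genes by the elements of their promoters. RefSeq had promoter entries for 9 of the 10 genes, all but Hmox1, and none of the other 6 held a core within 250 bases. The core of the antioxidant response element, TGACNNNGC on both strands, was present once in the window of Mt2 and once in that of Sod1, against 10.2% of all windows with at least 1. It was not found in the windows of Nqo1, Fth1, Ftl1, Gpx4, Sod2, Mt1 or Mt3, which says nothing of sites outside 250 bases.

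Libraries held from 2242879 to 21112908 counted reads, and 8 of the 47 held under 5000000. Hippocampal markers were present throughout (Prox1 at 81.3 to 155.7 CPM, the normalised reads of a gene in a library scaled to 1000000 reads, and Neurod6 at 145.2 to 325.6 CPM). Choroid plexus, the epithelium that makes cerebrospinal fluid and borders the hippocampus, differed widely between libraries: the summed level of 10 of its markers ran from 12.02 to 4259 CPM. All 10 markers were detected. A further property was the length index, the mean log2 CPM of genes with long transcripts minus that of genes with short ones, after centring each gene. It was lowest in Young Veh 4 (-0.35), Old PF4 8 (-0.23) and Young PF4 4 (-0.16), so these libraries held relatively more reads of short transcripts. In whole tissue, fewer cells of a type and less RNA per cell cannot be told apart.

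The 10 genes differed in level by more than 3 orders of magnitude when counts were divided by the length of a RefSeq transcript. In CPM per kilobase, Fth1 stood first at 2636 ± 279 (SD, n = 47), followed by Sod1 at 419 ± 88.6, Mt1 at 359 ± 61.4 and Mt3 at 299 ± 50.1. Ftl1 (86.6 ± 12.4), Mt2 (76.8 ± 15.7), Gpx4 (58.4 ± 6.75) and Sod2 (29.7 ± 1.37) formed the middle. Nqo1 (5.38 ± 2.19) and Hmox1 (0.494 ± 0.282) were lowest. The order of Fth1 over Sod1, of Mt3 over Ftl1 and of each gene from Gpx4 downward over the next held in all 47 libraries. Sod1 exceeded Mt1 in 36 of 47 libraries, Ftl1 exceeded Mt2 in 33, Mt2 exceeded Gpx4 in 39 and Mt1 exceeded Mt3 in 46, so the first 3 of these neighbours overlapped. The order depends on the lengths used, which were 5861 bases for Sod2, 995 for Gpx4 and 641 for Sod1. Before that division Sod2 averaged 173.8 CPM, above Gpx4 at 58.08 CPM and below Sod1 at 268.7 CPM. Brain-typical Mt3 was close to Mt1 in level, and in counted reads the heavy ferritin chain was far above the light one. Ftl1 has similar copies in the annotation, described below, and reads left uncounted because of them were not measured.

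The genes also differed in how far they varied between mice of a group. Sod2 had a residual SD of only 0.068 on the log2 CPM scale, and 0.315% of the genes tested had a smaller one. Fth1 (0.125) and Gpx4 (0.153) were also steady, with 15.5% and 27.4% of genes below them. The metallothioneins lay near the middle, at 0.240 for Mt1, 0.289 for Mt2 and 0.242 for Mt3. Nqo1 (0.557) and Hmox1 (0.807) varied most. Hmox1 was counted only 376 times in all libraries together.

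**Figure D1:**
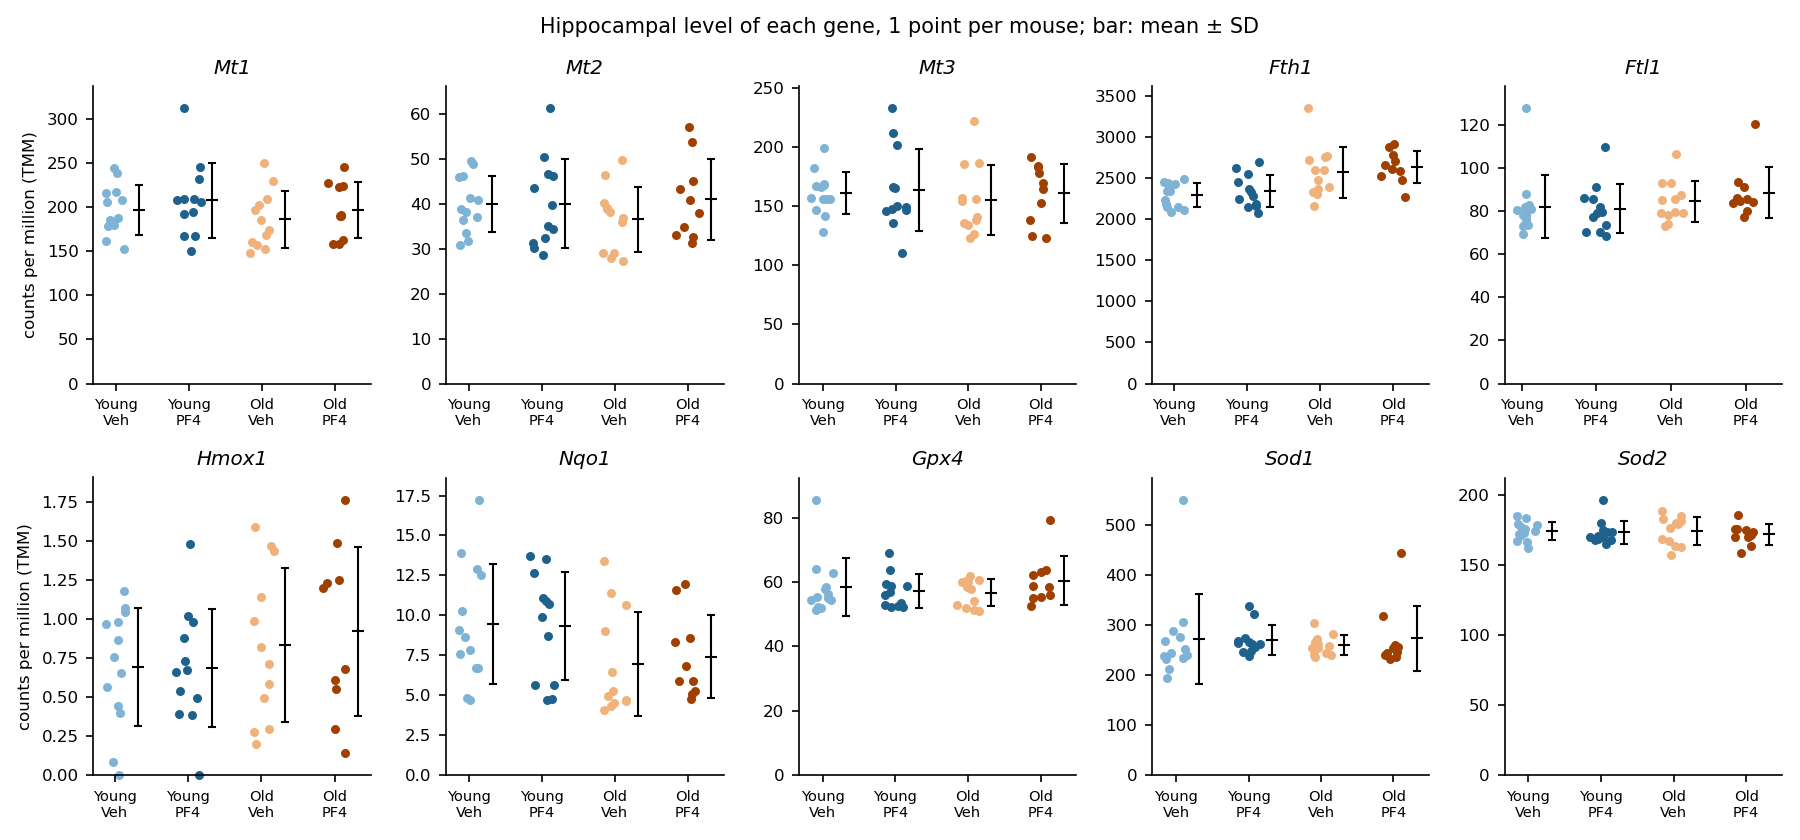
TMM-normalised CPM (vertical axis, from 0) of the 10 genes in each mouse, by group along the horizontal axis; points are mice and the bar beside them is the mean ± SD (n = 13, 12, 12 and 10). All groups overlap for every gene; Fth1 sits higher in the old groups, with medians of 2539 and 2632 CPM against 2337 and 2307.

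Aging was the first question. None of the 10 genes passed the test between Old Veh and Young Veh at an adjusted p of 0.05, where 492 of 17778 genes did (2.77%), nor between Old PF4 and Young PF4, where 59 genes did (0.332%). One of the 10 had an unadjusted p under 0.05 in each comparison, Fth1 in both, where 15.2% and 8.27% of all tested genes did. The median log2 fold change of the 10 genes was -0.052 in the Veh mice and 0.019 in the PF4 mice, beside -0.013 and 0.0041 over all genes tested. All adjusted p-values across genes are Benjamini-Hochberg values from edgeR's quasi-likelihood test over the 17778 genes.

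Fth1, the heavy chain of ferritin, was the gene with the clearest difference by age. Its level ran from 2093 to 2491 CPM in Young Veh (median 2337) and from 2074 to 2697 CPM in Young PF4 (median 2307). It ran from 2160 to 3352 CPM in Old Veh (median 2539) and from 2267 to 2912 CPM in Old PF4 (median 2632). The ranges overlapped, with 9 of 12 Old Veh mice above the Young Veh median and 6 of 12 above every Young Veh mouse. The log2 fold change was 0.16 (SE 0.051, 95% interval 0.06 to 0.27, adjusted p = 0.0658) between the Veh groups. Between the PF4 groups it was 0.17 (SE 0.054, 95% interval 0.06 to 0.28, adjusted p = 0.208). The difference between the Veh groups was called in 3 of 12 alternative settings, DESeq2 among them, with adjusted p-values from 0.00844 to 0.503. That between the PF4 groups was called in 0 of 12.

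When both treatments were averaged, a comparison chosen after these values had been seen, Fth1 rose in old mice by a log2 fold change of 0.17 (SE 0.037, 95% interval 0.09 to 0.24, adjusted p = 0.00338). That is 1.12-fold. Of the 22 old mice 18 lay above the median of the 25 young mice, and 8 lay above all of them. It was the only 1 of the 10 genes called there, beside 838 genes called in all (4.71%). The call held with each of the 47 libraries left out in turn. The light chain Ftl1 had a log2 fold change of 0.09 (SE 0.055, adjusted p = 0.421) in the same comparison. It was called in 1 of 11 alternative settings, with the length index as a covariate (adjusted p = 0.0225). Over those settings its value ran from -0.11 to 0.14.

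Markers of glia moved with the same samples. The summed level of 10 oligodendrocyte markers had a median of 6793 CPM in Young Veh (5961 to 7459), 6621 in Young PF4 (4603 to 8555), 7321 in Old Veh (5730 to 8988) and 7809 in Old PF4 (6842 to 8286). The sum of 10 microglia markers had medians of 481.5, 466.5, 540.2 and 590.3 CPM in these groups, with ranges of 423 to 547.4, 427.4 to 538.7, 463.4 to 623.9 and 489.1 to 701.2 CPM. All 10 markers of both lists were detected. In the average over both treatments, 3 of 10 oligodendrocyte markers and 8 of 10 microglia markers rose and none fell. Of 10 astrocyte markers 2 rose there and none fell, namely Gfap (0.38, adjusted p = 2.38e-05) and Slc1a2 (0.16, adjusted p = 1.85e-05). The summed astrocyte markers had medians of 4536, 4383, 4775 and 4730 CPM in Young Veh, Young PF4, Old Veh and Old PF4, with ranges of 4316 to 5513, 4205 to 4865, 4652 to 5530 and 4536 to 5768 CPM. Across the 47 libraries, after group means were subtracted, Fth1 correlated with the oligodendrocyte score, the mean log2 CPM of those markers (r = 0.716, rho = 0.728, permutation p = 1e-05 for each, the smallest that 100000 resamples can give, adjusted p = 0.000145 for r). It was 0.712 with the 2 most extreme scores removed, and within the groups it ran from 0.623 to 0.804. The correlation with the microglia score was 0.477 (rho = 0.459, permutation p = 0.00073 and 0.00161, adjusted p = 0.00557 and 0.0137), and 0.549 without the 2 farthest. Fth1 also went with the length index (r = -0.431, rho = -0.475, permutation p = 0.00109 and 0.00158, adjusted p = 0.00687 and 0.0137, and r = -0.446 without the 2 farthest). With the mean log2 CPM of 9 glucocorticoid response genes its r was -0.39 (rho = -0.388, permutation p = 0.00701 and 0.00905, adjusted p = 0.0328 and 0.0547, and r = -0.383 without the 2 farthest). Of these 9 genes 3 fell in old mice over both treatments, namely Plin4 (-0.67, adjusted p = 0.00638), Tsc22d3 (-0.27, adjusted p = 0.0128) and Sgk1 (-0.29, adjusted p = 0.035). Fth1 was also called over both treatments with the length index as a covariate, and the part of the glucocorticoid score was not tested.

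With the oligodendrocyte score as a covariate the log2 fold change of Fth1 over both treatments was 0.07 (SE 0.032, adjusted p = 0.238), and with the microglia score 0.04 (SE 0.050, adjusted p = 0.672). Fth1 was then no longer called. These scores themselves differ by age, so age and cell composition cannot be told apart in that fit. The genes whose residual pattern was most like that of Fth1 over 47 libraries were Ppp1r14a (r = 0.833), Cmtm5 (0.821) and the ribosomal protein gene Rps9 (0.780).

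**Figure D2:**
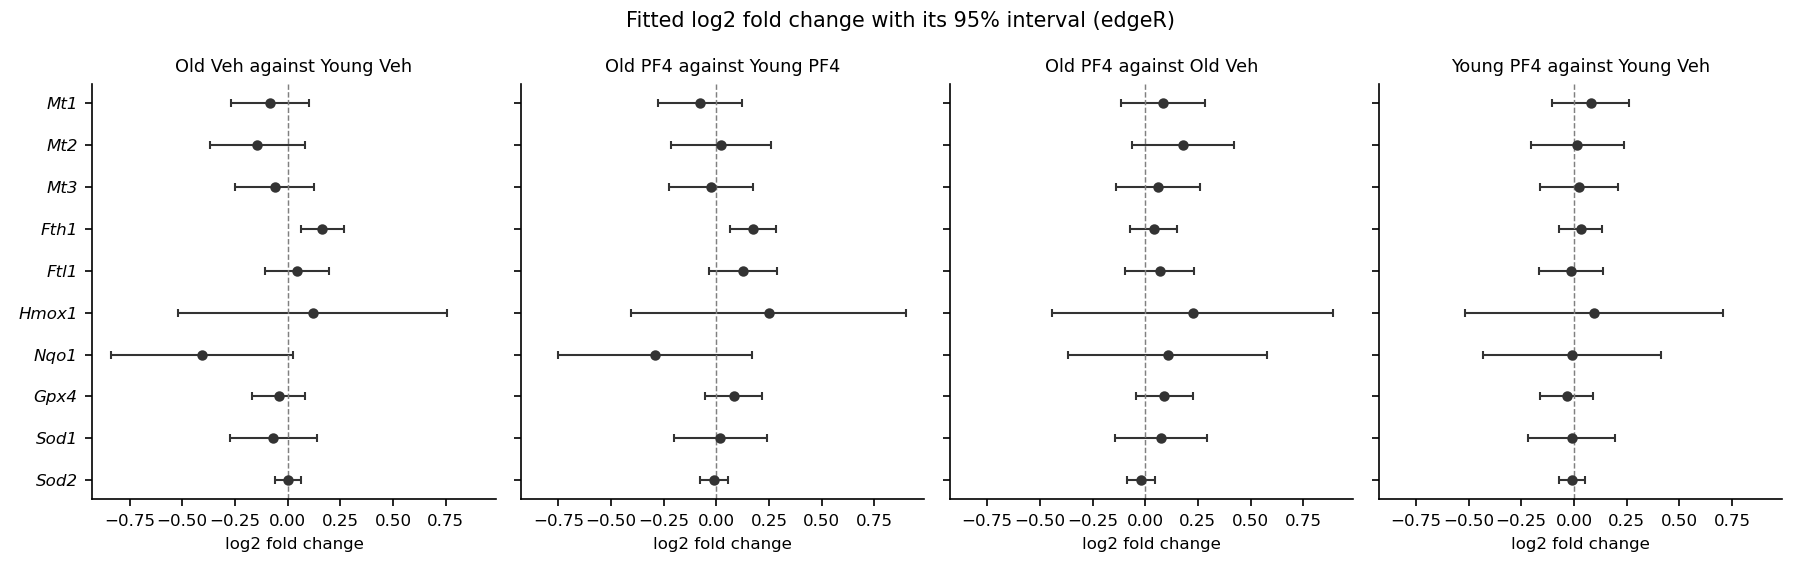
Fitted log2 fold change (horizontal axis) of each of the 10 genes in 4 comparisons, as points with 95% intervals from edgeR; the dashed line is no change. The interval of Fth1 lies above 0 in both comparisons by age, 0.06 to 0.27 and 0.06 to 0.28, and all intervals of the comparisons by PF4 include 0.

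Nqo1, the quinone reductase, had the largest negative fold changes by age of the 10 genes, and these were not called. It ran from 4.702 to 17.25 CPM in Young Veh (median 8.666), 4.717 to 13.69 in Young PF4 (median 10.33), 4.087 to 13.39 in Old Veh (median 5.092) and 4.791 to 11.94 in Old PF4 (median 6.372). The ranges of the groups overlapped, with the old mice mostly in the lower part. Over both treatments 5 of 22 old mice lay above the young median, and 0 lay above every young mouse. The log2 fold change of Nqo1 was -0.41 (SE 0.216, adjusted p = 0.368) in the Veh mice, -0.29 (SE 0.229, adjusted p = 0.81) in the PF4 mice and -0.35 (SE 0.157, adjusted p = 0.206) over both. The interval of the value over both was -0.66 to -0.03, with an unadjusted p of 0.0311 in edgeR's test.

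Nqo1 varied with the choroid plexus score, and inversely with the neuron score. The choroid plexus score fell into 2 sets of libraries with no value between 3.35 and 4.17. In the 24 libraries with a score of at least 4, Nqo1 ran from 6.7 to 17.2 CPM (median 11.0), and in the 23 libraries below it ran from 4.09 to 8.67 CPM (median 5.09). The upper set held 8 of 13 Young Veh, 8 of 12 Young PF4, 4 of 12 Old Veh and 4 of 10 Old PF4 libraries. Within the upper set the medians of Nqo1 were 11.4, 10.98, 11.02 and 10.08 CPM in these groups, and within the lower set 6.704, 5.19, 4.664 and 5.576 CPM. Inside the upper set Nqo1 correlated with the score (r = 0.595, rho = 0.591, permutation p = 0.00219 and 0.00293, n = 24, and r = 0.572 without the 2 farthest libraries). Inside the lower set r was 0.595 and rho 0.377 (permutation p = 0.00283 and 0.0767, n = 23), and r was 0.266 without the 2 farthest, so that relation rested on them. With the neuron score, the mean log2 CPM of 10 neuron markers, Nqo1 had r = -0.511 in the upper set (rho = -0.576, permutation p = 0.0109 and 0.00372, adjusted p = 0.0217 and 0.00744, n = 24). In the lower set r was -0.427 (rho = -0.408, permutation p = 0.0418 and 0.0537, both unchanged by adjustment, n = 23). Without the 2 farthest neuron scores r was -0.497 and -0.458. These relations within the sets were computed after the others had been seen, and p-values were adjusted over the 2 sets.

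With the choroid plexus score as a covariate the log2 fold change of Nqo1 by age was 0.03 (SE 0.106, adjusted p = 0.944) in the Veh mice, 0.13 (SE 0.110, adjusted p = 0.815) in the PF4 mice and 0.08 (adjusted p = 0.666) over both, the opposite sign to the fit without it. The choroid plexus markers themselves had a median log2 fold change of -0.92 between Old Veh and Young Veh, and 0 of 10 were called. The genes most like Nqo1 over 47 libraries were Prlr (r = 0.923), which is 1 of the 10 choroid plexus markers, Cab39l (0.920) and the copper transporter gene Slc31a1 (0.919).

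**Figure D3:**
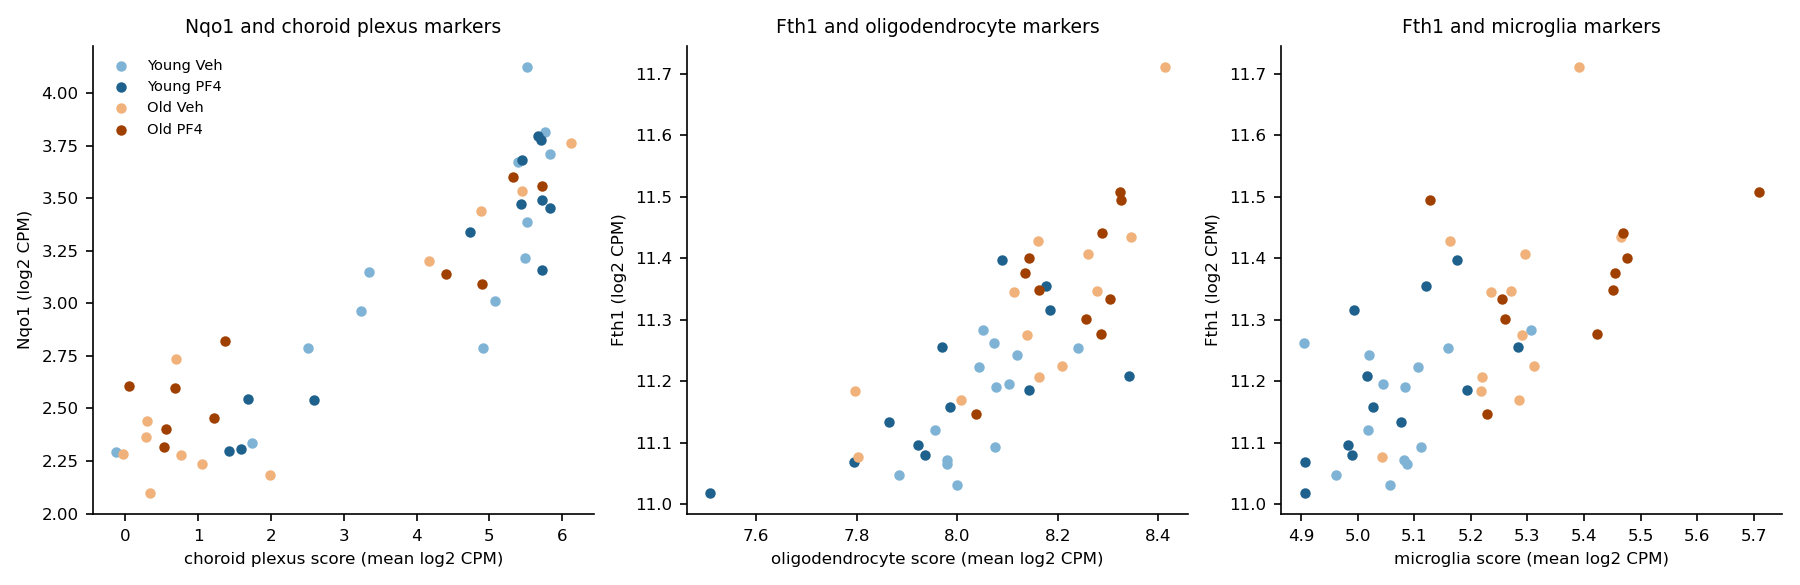
Log2 CPM of Nqo1 against the choroid plexus score (left), and of Fth1 against the oligodendrocyte (middle) and microglia (right) scores, each score being the mean log2 CPM of 10 markers; points are the 47 libraries, coloured by group. Nqo1 is high where the choroid plexus score is at least 4, with a median of 11.0 against 5.09 CPM, and Fth1 rises along the oligodendrocyte score (r = 0.716 with group means subtracted).

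The metallothioneins did not pass the test by age, and their groups overlapped. Mt1 had a median of 188.1 CPM in Young Veh (152.1 to 244.2), 206.8 in Young PF4 (150.8 to 312.5), 179.8 in Old Veh (147.7 to 250.3) and 190.8 in Old PF4 (158.1 to 245.2). Mt2 had medians of 38.91 (30.75 to 49.47), 37.41 (28.52 to 61.27), 37.51 (27.18 to 49.78) and 39.35 CPM (31.17 to 57.15) in the same order. Mt3 had medians of 157 (128.7 to 199.7), 150 (110.5 to 233.3), 147.8 (123.6 to 222.7) and 167.2 CPM (123.3 to 192). Young PF4 7 was the highest of all 47 libraries for each of the 3 genes, and Old Veh 1 was the highest Old Veh library for each. Between the Veh groups the log2 fold changes were -0.08 for Mt1 (95% interval -0.27 to 0.10), -0.14 for Mt2 (-0.37 to 0.08) and -0.06 for Mt3 (-0.25 to 0.12). A loss of Mt1 by more than 0.27 on the log2 scale was outside its interval.

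Between mice the 3 genes moved together. After subtraction of group means r was 0.855 for Mt1 with Mt2, 0.859 for Mt1 with Mt3 and 0.718 for Mt2 with Mt3 (rho 0.836, 0.799 and 0.656, permutation p = 1e-05 for each r, adjusted p = 0.000145, n = 47). Without the 2 farthest libraries these were 0.834, 0.819 and 0.647. Within the groups, r of Mt1 with Mt2 ran from 0.837 to 0.878 and that of Mt1 with Mt3 from 0.752 to 0.944. Among all 17777 other genes tested, Mt3 ranked 3 and Mt2 ranked 4 by correlation with Mt1, after Dynll2 (0.877) and Rplp1 (0.876). For Mt2, Mt1 ranked 3 after Gm45774 (0.97) and Rps21 (0.862), and Mt3 ranked 53. For Mt3, Mt1 ranked 11 and Mt2 ranked 64, and the 3 most similar genes were Gm21988 (0.912), Rnasek (0.907) and Cox8a (0.894). Inside the cluster Gm45774, which overlaps the exons of Mt2 as described next, had r = 0.83 to Mt1. The 9 other tested genes within 200 kb of the cluster had r to Mt1 from -0.501 (Ogfod1) to 0.587 (Gnao1), with a median of 0.052. Gnao1 had r = 0.671 with Mt2 and 0.557 with Mt3, so it too varied with the metallothioneins, at lower r to Mt1 than Mt2 and Mt3 had.

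Reads at Mt2 carry a limit. The antisense gene Gm45774 overlaps its exons on the other strand, the libraries were not stranded, and Gm45774 was counted at 59.5% to 72.9% of Mt2 in every library with r = 0.97. Reads of Mt2 and its antisense partner cannot be told apart here. At Ftl1 the opposite-strand gene Gm10252 was counted at 14% to 26.7% of Ftl1 (r = 0.78). Ftl1 also has 8 similar copies in the annotation, with 90.2% to 99.6% identity over the aligned part, of which 1 was in the table with 53 reads, against 40710 for Ftl1. Fth1, Gpx4 and Sod1 have near copies that were not in the table. The values of these genes and of Ftl1 are uncertain to the extent that reads were shared with copies or left uncounted because of them. The 53 reads of the copy do not measure this.

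Fth1 moved with Mt3 and Mt1, and its correlation with Mt2 did not pass the test. Its r was 0.698 with Mt3 (rho 0.649, permutation p = 1e-05 for each, adjusted p = 0.000145 for r) and 0.647 with the 2 farthest libraries removed. With Mt1 its r was 0.563 (rho 0.519, permutation p = 9e-05 and 0.00044, adjusted p = 0.001 and 0.00532), and 0.511 without the farthest. With Mt2 its r was 0.327 (rho 0.241, permutation p = 0.0329 and 0.118, adjusted p = 0.117 and 0.268), and 0.266 without the farthest. Hmox1, of few reads, had r = 0.462 with Fth1 (rho 0.479, permutation p = 0.00107 and 0.00119, adjusted p = 0.00687 and 0.0123) and 0.381 with Mt3 (rho 0.423, permutation p = 0.0091 and 0.00437, adjusted p = 0.0412 and 0.0314). Without the farthest libraries these were 0.496 and 0.432. Within the groups, r of Hmox1 with Fth1 was 0.234 in Young Veh, 0.15 in Young PF4, 0.712 in Old Veh and 0.801 in Old PF4. With Mt3 it was 0.113, 0.119, 0.653 and 0.751 in the same order. Mt2 ran against Ftl1 (r = -0.52, rho = -0.539, permutation p = 2e-04 and 0.00024, adjusted p = 0.00207 and 0.00348) and against Gpx4 (r = -0.468, rho = -0.454, permutation p = 5e-04 and 0.00187, adjusted p = 0.00453 and 0.0151). Without the farthest libraries these were -0.489 and -0.423. Ftl1, Gpx4 and Sod1 formed the other set, with r of 0.733 to 0.771 between them. Within the groups, r of Gpx4 with Sod1 was 0.196 in Old Veh and from 0.662 to 0.876 in the others. In all, 12 of 45 pairs of these genes had an adjusted permutation p under 0.05, 10 of them positive, where p-values were adjusted over 145 relations (45 pairs and 100 with library measures). The correlations are over mice and not over independent genes.

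**Figure D4:**
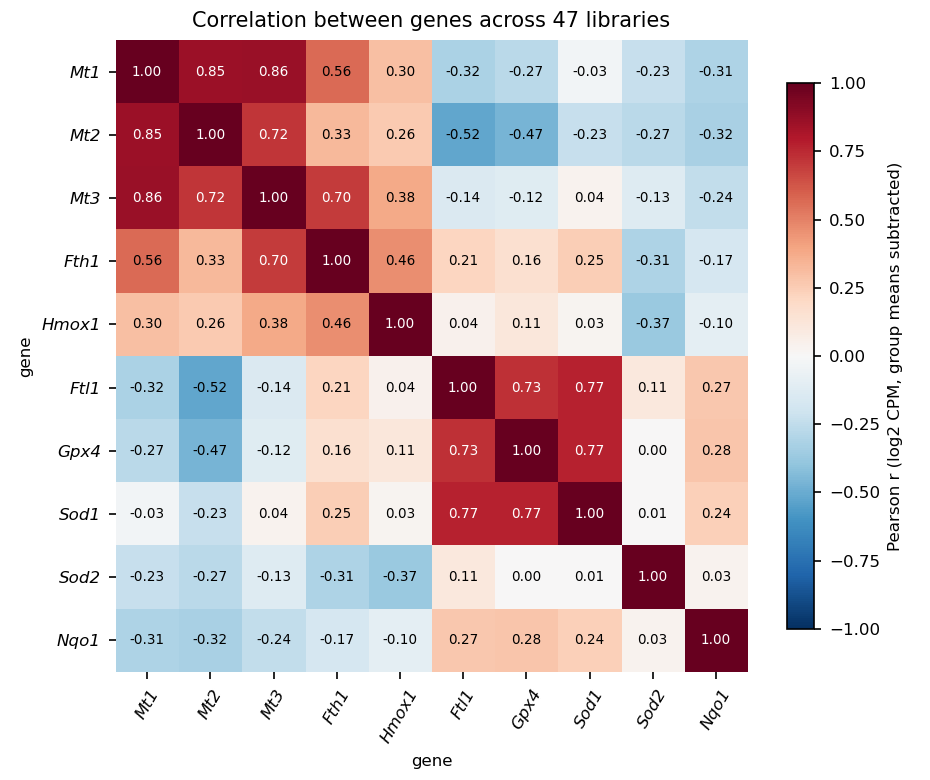
Pearson correlation of log2 CPM between each pair of the 10 genes (axes) over 47 libraries after group means were subtracted, as colour and number. Mt1, Mt2 and Mt3 share r of 0.718 to 0.859, and Ftl1, Gpx4 and Sod1 share r of 0.733 to 0.771.

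Astrocyte and neuron markers moved with some of these genes, and their part in the correlations was not tested. The mean log2 CPM of 10 astrocyte markers correlated with Ftl1 (r = 0.608, rho = 0.595, permutation p = 1e-05 and 4e-05, adjusted p = 0.000145 and 0.000725) and inversely with Mt2 (r = -0.541, rho = -0.582, permutation p = 0.00058 and 0.00016, adjusted p = 0.00467 and 0.00258). Without the farthest libraries these were 0.619 and -0.491. Mt1 (r = -0.336, rho = -0.352, permutation p = 0.035 and 0.0204, adjusted p = 0.118 and 0.106) and Mt3 (r = -0.278, rho = -0.309, permutation p = 0.0971 and 0.0469, adjusted p = 0.212 and 0.148) did not pass the test with the astrocyte score. The genes most like Ftl1 were Apoe (r = 0.927), the lipoprotein that astrocytes secrete, Cd81 (0.926) and Stub1 (0.890). For neuron markers the signs of Mt2 and Ftl1 were opposite. There Mt2 had r = 0.493 (rho = 0.476, permutation p = 0.00077 and 0.00147, adjusted p = 0.00558 and 0.0137, and r = 0.506 without the farthest) and Ftl1 had r = -0.454 (rho = -0.377, permutation p = 0.00125 and 0.0116, adjusted p = 0.00755 and 0.067, and r = -0.443 without the farthest). Mt1 had r = 0.445 with the neuron score (rho = 0.432, permutation p = 0.00292 and 0.00477, adjusted p = 0.0157 and 0.0314, and r = 0.449 without the farthest). Mt3 had r = 0.423 (rho = 0.405, permutation p = 0.00555 and 0.00835, adjusted p = 0.0268 and 0.0526, and r = 0.394 without the farthest).

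Sod1, Ftl1 and Gpx4 were highest in a few libraries of low length index. Sod1, the cytosolic superoxide dismutase, ran from 194.2 to 551 CPM in Young Veh (median 244.6), 238.5 to 338.5 in Young PF4 (median 263.2), 237 to 304.9 in Old Veh (median 256.2) and 231.2 to 443.4 in Old PF4 (median 250.4). Young Veh 4 (551 CPM), Old PF4 8 (443.4) and Young PF4 4 (338.5) were the highest libraries, and they had the 3 lowest length indices. The next Young Veh library lay at 306.9 CPM. Sod1 did not pass the test by age, with a log2 fold change of -0.07 (SE 0.102, adjusted p = 0.819) in the Veh mice, which became 0.06 without Young Veh 4.

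Ftl1 reached 127.8 CPM in Young Veh 4, 109.7 in Young PF4 4 and 120.2 in Old PF4 8, where the group medians were 78.21, 79.3 and 85.29 CPM. Its Old Veh range was 73.24 to 106.5 CPM (median 82.49). Gpx4, the lipid peroxide reductase, reached 85.66, 69.13 and 79.15 CPM in those libraries, above medians of 55.46, 56.45 and 58.59 CPM, and ran from 50.85 to 61.79 CPM in Old Veh (median 58.09). The correlation with the length index was -0.752 for Ftl1 (rho = -0.512, permutation p = 1e-05 and 0.00054, adjusted p = 0.000145 and 0.00602), -0.659 for Sod1 (rho = -0.301, permutation p = 0.00055 and 0.0317, adjusted p = 0.00467 and 0.128) and -0.644 for Gpx4 (rho = -0.339, permutation p = 0.00027 and 0.0221, adjusted p = 0.00261 and 0.111). Without the 2 farthest libraries the correlation with the length index was -0.558, -0.286 and -0.335, so the relations of Sod1 and Gpx4 rested on those libraries. Without the 2 farthest libraries r of the pairs among these genes was lower, at 0.538 in place of 0.771 for Ftl1 with Sod1, 0.486 in place of 0.770 for Gpx4 with Sod1 and 0.503 in place of 0.733 for Ftl1 with Gpx4. By ranks over all 47 libraries these pairs still passed the test, with rho of 0.494 (permutation p = 0.00042, adjusted p = 0.00532), 0.449 (permutation p = 0.00218, adjusted p = 0.0166) and 0.415 (permutation p = 0.00464, adjusted p = 0.0314). The genes most like Sod1 were Rpgrip1 (r = 0.938), Actb (0.932) and Pdcd4 (0.931), and those most like Gpx4 were Atraid (0.841), Sdhb (0.822) and Gm2a (0.820).

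**Figure D5:**
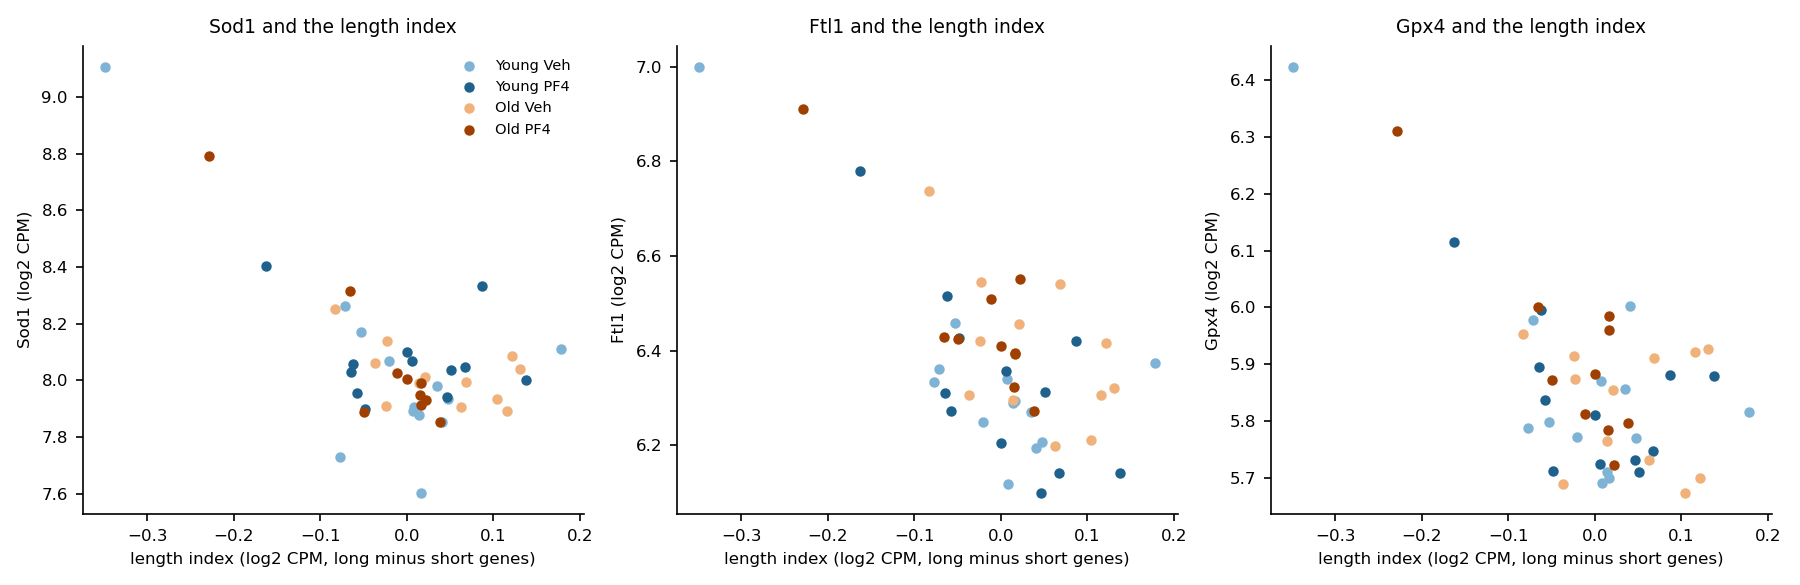
Log2 CPM of Sod1, Ftl1 and Gpx4 against the length index of the library (log2 CPM of long minus short genes); points are the 47 libraries, coloured by group. Young Veh 4 at -0.35 and Old PF4 8 at -0.23 stand apart at the upper left of each panel.

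Sod2, the mitochondrial superoxide dismutase, hardly varied. Its medians were 174.5 CPM in Young Veh (162.3 to 185), 170.7 in Young PF4 (165 to 197), 177.8 in Old Veh (157.6 to 188.7) and 172.7 in Old PF4 (159 to 186.3). The log2 fold change by age was 0.0019 (95% interval -0.06 to 0.06) in the Veh mice and -0.010 (-0.076 to 0.055) in the PF4 mice. As a fold of the young level, the interval in the Veh mice was 0.960 to 1.045. The genes most like Sod2 were Kcnc2 (r = 0.634), Mme (0.570) and Cacna1g (0.542).

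Hmox1 was near the limit of detection. It had 0 reads in Young Veh 13 and Young PF4 8, which at a limit of 3 reads allows up to 1.34 and 1.13 CPM in those libraries (counting error only), and between 1 and 26 reads in the others. Its medians were 0.7576, 0.6665, 0.7669 and 0.9387 CPM in Young Veh, Young PF4, Old Veh and Old PF4, with highest values of 1.179, 1.479, 1.59 and 1.766 CPM. The log2 fold change by age was 0.12 (95% interval -0.52 to 0.76) in the Veh mice and 0.25 (-0.40 to 0.90) in the PF4 mice. A difference of the size seen for Fth1 was not detectable for Hmox1 at this depth. The genes most like Hmox1 were Dpm3 (r = 0.631), Gm10524 (0.617) and Tuba8 (0.595).

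Within an age class, the level of these genes was also set against the age of each mouse in months. Of 20 relations (10 genes in 22 old and in 25 young mice) 0 had an adjusted p under 0.05, the smallest being 0.776 for r and 0.756 for rho. The smallest unadjusted p was that of Mt3 in old mice (r = 0.421, rho = 0.223, permutation p = 0.0562 and 0.322), where r was 0.546 without the 2 farthest ages.

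The second question was PF4. None of the 10 genes was called between Old PF4 and Old Veh, where 6 of 17778 genes were (0.0337%), or between Young PF4 and Young Veh, where edgeR called 0 genes (0%) and 213 had an unadjusted p under 0.05. DESeq2 called none of the 10 in either comparison. None of the 10 had an unadjusted p under 0.05 in them, where 6.2% of all tested genes did in old mice and 1.2% in young mice. The fold changes in old mice were positive for 9 of the 10 genes, with a median of 0.08 on the log2 scale beside 0.0086 over all genes, and in young mice for 5 of 10, with a median of 0.0037 beside -0.006.

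In old mice the intervals set bounds on what PF4 could have done. For Mt2 the log2 fold change was 0.18 (95% interval -0.06 to 0.42, adjusted p = 0.913), for Mt1 0.08 (-0.11 to 0.28) and for Mt3 0.06 (-0.14 to 0.26). Fth1 differed by 0.04 (-0.07 to 0.15), Ftl1 by 0.07 (-0.09 to 0.23), Gpx4 by 0.09 (-0.05 to 0.23) and Sod1 by 0.07 (-0.15 to 0.29). Sod2 was narrowest at -0.02 (-0.09 to 0.04), and Nqo1 (0.11, -0.36 to 0.58) and Hmox1 (0.22, -0.44 to 0.89) were widest. Without Old PF4 8 the values were -0.03 for Sod1, 0.01 for Ftl1 and 0.04 for Gpx4. With each library left out in turn, Nqo1 ran from 0.0096 to 0.28 and Hmox1 from 0.091 to 0.33.

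In young mice the fold changes by PF4 ran from -0.03 for Gpx4 to 0.10 for Hmox1 on the log2 scale. The intervals of Mt1 (-0.11 to 0.26), Mt2 (-0.20 to 0.24), Mt3 (-0.16 to 0.21), Fth1 (-0.07 to 0.13) and Sod2 (-0.07 to 0.05) all included 0. An interaction term tested whether the effect of PF4 differed with age, and none of the 10 genes or of the other genes passed (0 of 17778, 0%, with 707 at an unadjusted p under 0.05 in edgeR). The largest of the 10 were 0.16 for Mt2 (SE 0.163) and 0.13 for Gpx4 (SE 0.093) and Hmox1 (SE 0.454), each with an adjusted p of 1. DESeq2 called none of the 10 for this difference either.

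Other genes of the pathways were taken from fixed lists. Of 26 tested genes of metal ion handling, 1 rose between Young Veh and Old Veh and none fell, a share near the 2.77% of all tested genes called there. The gene was S100b, a calcium- and zinc-binding protein of astrocytes, from 58.61 to 69.99 CPM (log2 fold change 0.24, SE 0.069, adjusted p = 0.0426). Of the 10 astrocyte markers, Slc1a2 rose in the same comparison (0.19, adjusted p = 0.000274) and Aldh1l1 fell (-0.19, adjusted p = 0.0465), and the part of astrocytes in the value of S100b was not tested. It was called in 16 of 25 fits with a library left out and in 5 of 12 alternative settings. It was not called with the oligodendrocyte (adjusted p = 0.0916), microglia (0.211) or choroid plexus (0.12) score or a depth term (0.0925) as a covariate, without the shallowest libraries (0.162), without the count filter (0.0615) or with the replicate block (0.0537). The copper importer Slc31a1, a gene most like Nqo1, had -0.52 (SE 0.259, adjusted p = 0.331), and 0.05 with the choroid plexus score as a covariate. The list's median was -0.035, beside -0.013 over all genes. S100b had 0.23 between Old PF4 and Young PF4 (adjusted p = 0.233) and was not called there. In the average over both treatments it had 0.23 (adjusted p = 0.00254). That call held in 47 of 47 fits with a library left out and in 9 of 11 alternative settings, with adjusted p-values up to 0.268.

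Of 25 tested genes of iron uptake, storage and export, 2 fell between Young Veh and Old Veh and none rose, where 2.77% of all tested genes were called and 108 of those 492 were lower. Heph, the membrane ferroxidase that accompanies iron export, fell from a mean of 7.485 to 5.311 CPM (log2 fold change -0.48, SE 0.128, adjusted p = 0.0274). Aco1, which loses its aconitase activity and binds iron-responsive elements when iron is scarce, fell from 35.76 to 31.84 CPM (log2 fold change -0.17, SE 0.050, adjusted p = 0.0464). Both calls were near the threshold. Between Old PF4 and Young PF4, 0 of the 25 genes were called, where 0.332% of all tested genes were. Heph had -0.32 there (adjusted p = 0.483) and Aco1 had -0.13 (adjusted p = 0.41). Heph was called in 9 of 12 alternative settings, and not with the choroid plexus score (-0.33, adjusted p = 0.15), with the microglia score (-0.32, adjusted p = 0.175) or without the 8 shallowest libraries (adjusted p = 0.0617). Aco1 was called in 5 of 12, with values from -0.19 to -0.13. It was not called without the count filter, with the replicate block, without the shallowest libraries or with a depth, length, oligodendrocyte or choroid plexus term, where adjusted p-values ran from 0.0515 to 0.192. With single libraries left out in turn, Heph remained called in 18 of 25 fits and Aco1 in 8 of 25, with adjusted p-values from 0.02 to 0.0648 and from 0.0418 to 0.0962.

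In the average over both treatments 1 of the 25 genes of this list rose and 3 fell, where 4.71% of all tested genes were called, 588 higher and 250 lower. These were named after their values had been seen. Trf, the iron carrier transferrin, which oligodendrocytes make, rose by a log2 fold change of 0.31 (SE 0.083, adjusted p = 0.0184). Heph (-0.40, adjusted p = 0.00583), Aco1 (-0.15, adjusted p = 0.00677) and the transferrin receptor Tfrc (-0.11, adjusted p = 0.0488) fell. As with Fth1, Trf was not called with the oligodendrocyte score (0.14, adjusted p = 0.385) or the microglia score (0.0082, adjusted p = 0.98) as a covariate. Heph was not called with the choroid plexus (-0.27, adjusted p = 0.0946), oligodendrocyte (-0.34, adjusted p = 0.0635) or microglia (-0.19, adjusted p = 0.404) score, nor Aco1 with the choroid plexus score (-0.11, adjusted p = 0.0887). Tfrc was called in 3 of 11 alternative settings, with adjusted p-values up to 0.326, and in 11 of 47 fits with a library left out.

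The 31 genes of the Nrf2 pathway and glutathione held no call in any comparison, nor did the 30 peroxide and superoxide enzymes. In the Nrf2 list 13 fold changes were positive and 18 negative between Old Veh and Young Veh, with a median of -0.012, beside -0.013 over all genes. Its genes with the smallest p were Slc3a2, a subunit of the cystine importer (-0.09, SE 0.044, adjusted p = 0.279), and Gss, glutathione synthetase (-0.16, SE 0.072, adjusted p = 0.283). Among the enzymes 7 fold changes were positive and 23 negative, with a median of -0.046, in that comparison. In the PF4 mice 19 were positive by age and 11 negative (median 0.021, beside 0.0041 over all genes), and for PF4 in old mice 22 were positive and 8 negative (median 0.042, beside 0.0086). These comparisons share the Old Veh or the Old PF4 libraries. Between Old Veh and Young Veh, Msra of this list, which repairs oxidised methionine, had 0.14 (SE 0.054, adjusted p = 0.182) and was called with the length index as a covariate (0.20, adjusted p = 0.00315). Gpx8, a peroxidase of the endoplasmic reticulum, had -0.90 in the same comparison (SE 0.388, adjusted p = 0.237), and -0.19 with the choroid plexus score as a covariate (adjusted p = 0.643). It was called without Old Veh 10 (-1.34, adjusted p = 0.0493). For PF4 at either age, 0 genes of the 4 lists passed the test.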

How the data were processed

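Hippocampal RNA of 47 mice was analysed in 4 groups set by the age and treatment in the labels. The deposited values are unnormalized read counts for each gene, which the authors made from unstranded Smart-Seq2 and Nextera XT libraries. The submitters' processing notes name Trim Galore 0.3.7, STAR 2.5.3a, DESeq2 and GRCm38, and the methods state that samples of low coverage were excluded. No replicate 4 of Old PF4 was analysed here.

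Counts were used as deposited, with totals per library from 2242879 to 21112908, which set the precision of genes with few reads. No row lacked a gene name. The quasi-likelihood test of edgeR 4.0.16 (R 4.3.3) was fitted to all 4 groups together with TMM normalization and filterByExpr. Genes with a Benjamini-Hochberg adjusted p under 0.05 over 17778 genes were called. Standard errors are the absolute log2 fold change over the square root of F. Log2 CPM used a prior count of 2. DESeq2 1.42.0, the study's tool, was an alternative. Other alternatives were size factors, filters, a block by replicate number, depth, covariates and leaving out each library. The steps were tested on simulated data. No pair of libraries held identical counts, and whether replicates were processed in batches is not given in the sources used here. The library numbers in the titles run from 1 to 12 in Old Veh, 13 to 23 in Old PF4 and 24 to 48 in the young groups. What the numbers stand for is not stated. If they follow an order of processing, it cannot be told apart from age, or from PF4 in old mice.

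The 10 genes and the pathway and marker lists were chosen with earlier results of these data known. Named beside the 10 genes were each pathway gene called in any of the 5 comparisons and the 2 of each list with the smallest p between Old Veh and Young Veh, plus, for each of the 10, the 3 genes with the highest Pearson correlation. The average over treatments, the glial covariates and the division of libraries by choroid plexus score were added after the data had been seen. The length index used 17666 genes (99.4%), with the longest transcript at least 4594 or at most 2006 bases. Gene positions came from GENCODE for GRCm38 and promoters from RefSeq (GRCm38.p6). Correlations of log2 CPM, group means subtracted, had two-sided p-values from 100000 permutations within groups.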

Additional observations from a re-analysis of the deposited data

Results flagged for a closer look

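Old PF4 8 stood apart from the other 9 Old PF4 libraries at the upper end for 3 of the 10 genes. Sod1 was at 443.4 CPM there, and its gap to the next library was 0.51 of the range of the group. Ftl1 was at 120.2 CPM with a gap of 0.565 of the range, and Gpx4 at 79.15 CPM with a gap of 0.527. The limit of Dixon's test for 10 libraries is 0.466, and chance flags about 1 in 20 groups. The same library had a length index of -0.23, and the part of the length index in these values was not tested. The other 3 groups hold more than 10 libraries and were not tested in this way. None of the 10 genes passed the test of a difference between the effects of PF4 in old and in young mice.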

How the results depend on the processing

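None of the 10 genes was called for PF4 or for the interaction under any alternative run. Of their fold changes under settings other than a left-out library, 560 kept direction and side of the threshold, 48 turned sign, 4 became called and 2 lost the call. The number called between Old Veh and Young Veh was 1 (Fth1) under DESeq2 (adjusted p = 0.0352), under the stricter filter of a mean of 50 reads (0.048) and with the length index as a covariate (0.00844), and 0 to 1 with a library left out. Fth1 was called there without Old Veh 8 (0.0269) or Old Veh 11 (0.0358). Without Old Veh 1 its log2 fold change was 0.12 in place of 0.16, and its adjusted p-values over the 25 fits reached 0.165. Over both treatments, 2 genes were called with the length index, Fth1 and Ftl1, and 0 with the oligodendrocyte or microglia score. With the length index Ftl1 had a log2 fold change of 0.12 (adjusted p = 0.0225). The causes of these shifts were not tested. Depth limits Hmox1, with 376 reads in all libraries together.

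Correlations between libraries of the same replicate number ran from -0.425 to 0.554, with medians by comparison from -0.082 to 0.112. The best match of a library carried its own number in 0 to 2 of the 10 or 12 pairs of a comparison. Pairing by replicate number was therefore neither shown nor excluded. The replicate block left the number of the 10 genes called at 0 in each of the 5 comparisons and at 1 over both treatments, and gave 90 calls over all genes for age in PF4 mice and 10 for PF4 in old mice.

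The count over all genes for age in Veh mice became 176 without the 8 shallowest libraries, 901 with the length index and 898 with the microglia score. For age over both it became 437, 1398 and, with the oligodendrocyte score, 474. For age in PF4 mice it became 93 under DESeq2, 21 with the groups compared alone, 98 with the length index and 16 with the oligodendrocyte score, and 36 to 91 with a library left out. For PF4 in old mice it became 23 under DESeq2, 10 with the choroid plexus score and 0 with the groups compared alone, without the shallowest libraries, or with a depth, length, oligodendrocyte or microglia term, and 0 to 20 with a library left out. For the interaction it became 1 without the count filter.

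Log2 fold changes that turned sign were mostly near 0. With the oligodendrocyte score, the values were -0.0043 for Fth1 by PF4 in old mice, -0.026 for Hmox1 and -0.015 for Sod1 by age in PF4 mice and -0.0026 for Hmox1 by age in Veh mice. For the interaction they were -0.064 for Fth1, -0.023 for Hmox1, -0.039 for Mt1 and -0.034 for Mt3.
With the microglia score, PF4 in old mice gave -0.015 for Fth1 and -0.018 for Ftl1, and PF4 in young mice gave 0.0061 for Sod1. Age in PF4 mice gave -0.12 for Ftl1, -0.072 for Gpx4, -0.22 for Hmox1 and -0.19 for Sod1. Age in Veh mice gave -0.11 for Ftl1, -0.16 for Hmox1 and -0.0089 for Trf, and age over both gave -0.11 for Ftl1. The interaction gave -0.053 for Fth1, -0.015 for Ftl1, -0.054 for Hmox1 and -0.0044 for Sod1.
With the length index, the interaction gave -0.040 for Fth1, -0.058 for Ftl1, -0.13 for Sod1 and 0.0016 for Sod2. PF4 in old mice gave -0.037 for Ftl1 and -0.068 for Sod1, and PF4 in young mice 0.021 and 0.057. Age in Veh mice gave 0.036 for Gpx4, 0.076 for Sod1 and -0.0078 for Sod2, and age in PF4 mice -0.049 for Sod1.
With the choroid plexus score, age in PF4 mice gave -0.043 for Mt2 and 0.13 for Nqo1, age in Veh mice 0.031 for Nqo1 and 0.045 for Slc31a1, and age over both 0.081 and 0.051. With a depth term the interaction gave -0.00025 for Fth1, -0.0034 for Mt1 and 0.0084 for Sod2, and age in Veh mice -0.015 for Sod2. Without the shallowest libraries the interaction gave -0.011 for Fth1 and age in PF4 mice -0.018 for Mt2. The replicate block gave -0.00085 for Mt2 by age in PF4 mice, and 0.055 for Nqo1 and 0.024 for Sod1 by PF4 in young mice. No count filter gave -0.00045 for Sod2 by age in Veh mice.

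With each library left out in turn, some uncalled values crossed 0. The interaction ran from -0.019 to 0.043 for Fth1, -0.0062 to 0.31 for Hmox1, -0.039 to 0.070 for Mt1, -0.0089 to 0.089 for Mt3 and -0.048 to 0.11 for Sod1. PF4 in young mice ran from -0.061 to 0.056 for Ftl1, -0.060 to 0.025 for Gpx4, -0.083 to 0.17 for Hmox1, -0.060 to 0.059 for Mt2, -0.034 to 0.069 for Mt3, -0.077 to 0.062 for Nqo1, -0.042 to 0.12 for Sod1 and -0.023 to 0.0011 for Sod2. Age in Veh mice ran from -0.057 to 0.016 for Gpx4, -0.10 to 0.061 for Sod1 and -0.0044 to 0.016 for Sod2. Age in PF4 mice ran from -0.048 to 0.095 for Mt2, -0.067 to 0.031 for Mt3, -0.087 to 0.046 for Sod1 and -0.028 to 0.0033 for Sod2. PF4 in old mice ran from -0.029 to 0.096 for Sod1.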
